A study of Mus musculus with 28 samples.

Results

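Microglia carrying CD229 but not CD11c, sorted from demyelinating mouse brain, were compared with microglia of untreated brain for trimethylation of lysine 27 on histone H3 (H3K27me3). The comparison held 6 ChIP-seq libraries, 3 of CD229+CD11c- cells and 3 of basal cells (replicates 3, 4 and 5), chosen by the names of their count columns. They were 6 of the 12 H3K27me3 libraries with deposited counts, and of 28 samples in the series. All 26326 counted regions entered the comparison. Mice in every group were adult male WT C57BL/6. Basal cells, sorted through a CD44Low CD45Low CD11bLow gate, were from untreated mice fed a regular diet. CD229+CD11c- cells came from mice given a 0.2% cuprizone diet for 4 weeks. Other cuprizone libraries used here were 3 of CD229-CD11c- and 3 of CD229+CD11c+ cells. Brains of 2 to 6 mice of a condition were pooled for sorting. Nothing in the labels says that the replicates came from separate mice, so p-values here cover only the spread between the samples, which may be technical. Diet and sort gate changed together, and their effects cannot be told apart. In such pools, less mark per cell and fewer cells with the mark cannot be told apart either.

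H3K27me3 is written by Polycomb repressive complex 2 (PRC2), whose catalytic subunit is EZH1 or EZH2, and marks silent genes, above all developmental regulators with CpG-rich promoters. PRC1 complexes bind the mark, and the demethylases KDM6A and KDM6B remove it. In microglia, the resident macrophages of the brain, PRC2 keeps genes of other lineages silent. CD229, a receptor of the SLAM family, is the product of Ly9. CD11c is an integrin subunit, the product of Itgax, a gene of disease-associated microglia. Cuprizone is a copper chelator that kills oligodendrocytes and so strips myelin.

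The sequences of gene starts inside the regions are shown first, because CG content differed between higher and other regions. The dinucleotide CG, which reads the same on both strands, was counted in 300-base promoter windows (250 bases before to 50 after each start, RefSeq, GRCm38.p6). Of 32851 such windows in RefSeq, 94.6% held at least 1 CG and 26.5% held 20 or more. Shown are windows inside the 3 higher and 3 lower regions with the largest changes among those named for lying within 5 kb of a start at or above the median level, where the region held a RefSeq window, with CG in capitals. Regions under the median level near starts, such as that at Lgals3, are described with their genes, and some had larger losses. Those of the higher regions lie at chr10:41567766-41568065 (+ strand, 5 CG), chr5:122049802-122050101 (- strand, 48 CG) and chr8:95352046-95352345 (+ strand, 22 CG). Those of the lower regions lie at chr6:108660885-108661184 (- strand, 13 CG), chr2:27027949-27028248 (- strand, 22 CG) and chr15:10714049-10714348 (- strand, 25 CG). The 0610040F04Rik window lies in the region that the authors added at Bhlhe40.
5730435O14Rik: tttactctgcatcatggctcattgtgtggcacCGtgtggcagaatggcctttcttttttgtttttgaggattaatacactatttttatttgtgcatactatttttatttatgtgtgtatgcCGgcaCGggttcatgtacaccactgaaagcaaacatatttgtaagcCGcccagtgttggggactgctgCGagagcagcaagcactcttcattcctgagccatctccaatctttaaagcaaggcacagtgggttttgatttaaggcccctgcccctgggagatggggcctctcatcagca
Cux2: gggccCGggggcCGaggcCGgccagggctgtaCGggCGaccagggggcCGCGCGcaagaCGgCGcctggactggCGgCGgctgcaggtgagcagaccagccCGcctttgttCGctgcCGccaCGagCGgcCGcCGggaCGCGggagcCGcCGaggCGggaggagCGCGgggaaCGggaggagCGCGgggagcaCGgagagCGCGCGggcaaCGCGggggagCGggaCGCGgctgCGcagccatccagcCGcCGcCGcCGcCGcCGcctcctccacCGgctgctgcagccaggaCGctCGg
Mmp15: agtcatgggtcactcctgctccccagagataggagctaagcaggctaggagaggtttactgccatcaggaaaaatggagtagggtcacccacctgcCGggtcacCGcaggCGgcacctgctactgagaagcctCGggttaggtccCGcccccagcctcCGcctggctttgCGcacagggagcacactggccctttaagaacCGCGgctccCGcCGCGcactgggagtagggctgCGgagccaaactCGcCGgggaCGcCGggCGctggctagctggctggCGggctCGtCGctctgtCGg
0610040F04Rik: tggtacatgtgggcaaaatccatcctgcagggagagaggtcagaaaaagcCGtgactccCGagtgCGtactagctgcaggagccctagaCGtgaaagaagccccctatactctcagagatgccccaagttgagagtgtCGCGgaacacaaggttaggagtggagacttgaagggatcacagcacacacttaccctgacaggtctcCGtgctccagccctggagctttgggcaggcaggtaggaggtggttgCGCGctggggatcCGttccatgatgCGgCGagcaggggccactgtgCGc
Slc2a6: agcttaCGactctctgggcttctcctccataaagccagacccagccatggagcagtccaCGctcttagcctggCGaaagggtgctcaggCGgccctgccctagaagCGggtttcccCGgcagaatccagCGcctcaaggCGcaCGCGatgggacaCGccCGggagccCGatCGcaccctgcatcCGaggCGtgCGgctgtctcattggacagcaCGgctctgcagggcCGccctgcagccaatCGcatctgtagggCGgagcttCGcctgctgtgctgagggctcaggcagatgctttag
Rai14: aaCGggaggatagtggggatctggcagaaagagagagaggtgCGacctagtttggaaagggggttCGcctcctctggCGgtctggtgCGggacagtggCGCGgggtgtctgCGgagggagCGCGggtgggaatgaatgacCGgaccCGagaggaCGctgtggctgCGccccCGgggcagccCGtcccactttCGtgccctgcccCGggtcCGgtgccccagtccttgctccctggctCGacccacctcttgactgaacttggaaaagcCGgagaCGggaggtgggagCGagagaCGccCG
These 6 windows do not sort by CG number, since the largest gain, at 5730435O14Rik, had the fewest. The relation with CG described further on is one across all regions that hold a start.

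Basal libraries held 9742663 to 11175711 tags (aligned reads) in regions and CD229+CD11c- libraries 9031448 to 10986803. The median region held 192 to 222 tags in basal and 160 to 193 in CD229+CD11c- libraries. Across regions, Pearson's r of log2 CPM (tags of a region relative to all tags in regions, scaled by TMM) was 0.983 to 0.986 within basal, 0.977 to 0.987 within CD229+CD11c- and 0.967 to 0.976 between the groups. The cell type of the basal libraries was checked by which markers lay in regions called in basal replicates 1 and 2, a check that says nothing of the cuprizone libraries. Of 40 homeostatic microglia genes, 1 (Fcgr3) overlapped a region, and none of P2ry12, Tmem119, Cx3cr1 and Csf1r did, whereas 43 of 46 neuronal marker genes did. Of 23 peripheral macrophage and monocyte genes, 9 did, so most of these also lay outside regions. The check thus sets microglia apart from neurons more clearly than from other macrophages. Regions were called by the authors in basal microglia, so regions marked only in cuprizone cells were not counted, except the 1 added at Bhlhe40. In each cuprizone group, replicates 1 and 2 carry the tag PE150 in their titles and replicate 3 does not. Among the basal libraries, replicates 4 and 5 carry it and replicate 3 does not.

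H3K27me3 differed between CD229+CD11c- and basal microglia at 3419 of 26326 regions, 13% of those tested, by edgeR's quasi-likelihood test at an adjusted p under 0.05. It was higher at 2506 regions (9.52%) and lower at 913 (3.47%). Higher regions had a median log2 change of 0.48 and lower regions one of -0.51, against -0.03 over all regions. A change of 2-fold or more was seen at 96 of the higher and 47 of the lower regions. The higher regions were nearest to 2293 genes, the lower regions to 712, and 69 genes had both. The authors' deposited table listed 2742 higher and 821 lower regions, and 3201 regions were called in both with the same sign.

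The split between higher and lower depended on the scaling. TMM factors were 1.03 to 1.06 in basal and 0.944 to 0.949 in CD229+CD11c- libraries. When libraries were scaled by their total tags in regions, 1578 regions were higher and 3789 lower, and the median log2 change of all regions moved to -0.16. Changes below are on the TMM scale and should be read against the median of all regions, -0.03 there and -0.16 with total scaling. Without basal replicate 4, 2084 regions were called.

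**Figure D1:**
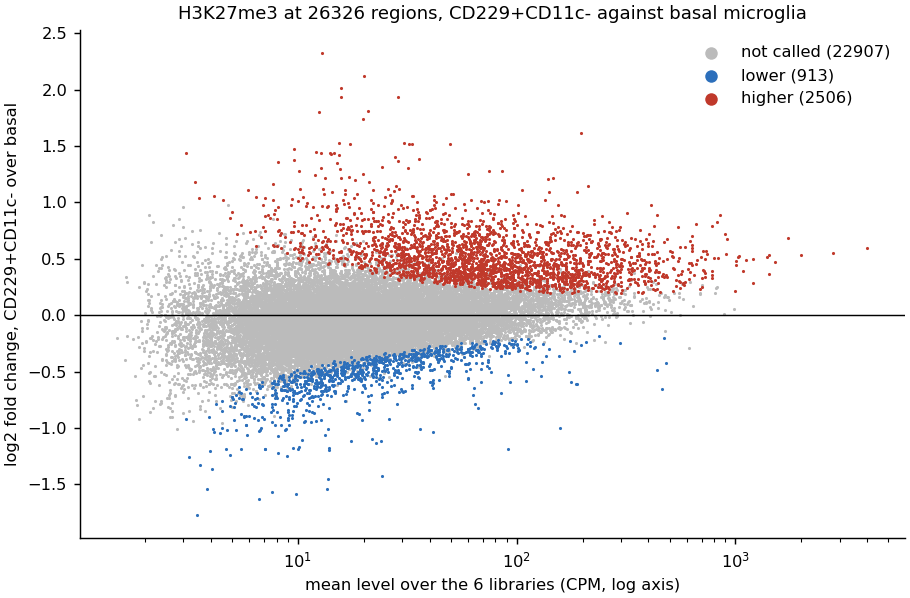
Log2 change of CD229+CD11c- over basal (vertical axis) against mean CPM (horizontal log axis) for each of the 26326 regions. The 2506 higher regions have a median of 70 CPM, the 913 lower regions one of 20.1 CPM, and 22907 regions were not called.

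Higher regions were long, strongly marked and close to gene starts. Their median length was 15008 bp against 6387 bp for all regions and 7475 bp for lower regions. A transcription start lay inside 61.7% of higher regions, 14% of lower regions and 19.9% of all regions. Of regions over 100 kb, 58% were higher, against 2.59% of those under 5 kb. Longer regions hold more tags, so a change of a given size is easier to call in them.

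Shares of tags do not depend on the scaling between libraries. Regions with a start within 5 kb held 23.2% ± 0.436 (SD, n = 3) of tags in basal and 26% ± 0.0528 (SD, n = 3) in CD229+CD11c- libraries, a difference of 2.85 points (exact two-sided permutation p = 0.1, the smallest that 3 against 3 can give). In the untagged pair these shares were 23.6% and 26.1%. Regions called promoter-TSS in the deposited annotation went from 3.6% to 4.11%, and those centred on CpG islands from 0.573% to 0.718%. The share in intergenic regions went from 53.9% to 52.1%, in LINE-centred regions from 7.38% to 6.77% and in LTR-centred regions from 9.55% to 8.95%. Each of the shares up to here had p = 0.1 by the same exact permutation test (Benjamini-Hochberg 0.1 over annotation classes and 0.111 over repeat classes). SINE-centred regions held 11.1% and 11% (exact permutation p = 0.7).

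Enrichment in basal replicates 1 and 2, separate libraries outside the comparison, divided the regions into 10 deciles. The median log2 change rose from -0.09 in the lowest decile to 0.21 in the top one. Offsets that remove this trend by construction left -0.0072 and -0.0066. Input was not subtracted, and a library-wide difference in enrichment over background was not tested. The top decile held 16.3% ± 0.731 (SD, n = 3) of tags in basal and 20.1% ± 0.106 (SD, n = 3) in CD229+CD11c- libraries. Within it, 58.6% of regions with a start within 5 kb were higher, against 19.3% of those without. In the lowest decile these shares were 4.49% and 1.13%. Regions near a start were therefore more often called higher at both ends of basal enrichment. In the top decile, however, their median length was 8142 bp against 2036.5 bp without a start. In the lowest it was 6721 against 7387.5 bp. By length, 10.2% of regions under 5 kb with a start within 5 kb were higher, against 1.14% without. Between 20 and 50 kb these shares were 53.1% and 19.7%.

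Higher regions also held promoters richer in CG. Among regions with a start inside, the CG-richest window held a median of 21 CG in the 1545 higher regions, 6 in the 128 lower and 7 in the 3573 not called. A window with 20 or more CG was present in 53.5% of the higher, 18.8% of the lower and 17.5% of the regions not called. Long regions hold more windows, so the count was repeated in regions with exactly 1 window. There, 9.04% of 1339 regions with 0 to 4 CG were higher, 14.3% with 5 to 9, 31.9% with 10 to 19, 48.7% with 20 to 29 and 58.5% of 446 with 30 or more. Median length in these groups ran from 9800 to 12371 bp. Their median basal log2 enrichment also differed, from 1.46 at 0 to 4 CG to 1.92 at 20 to 29 and 1.85 at 30 or more. CG number was not separated from enrichment.

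**Figure D2:**
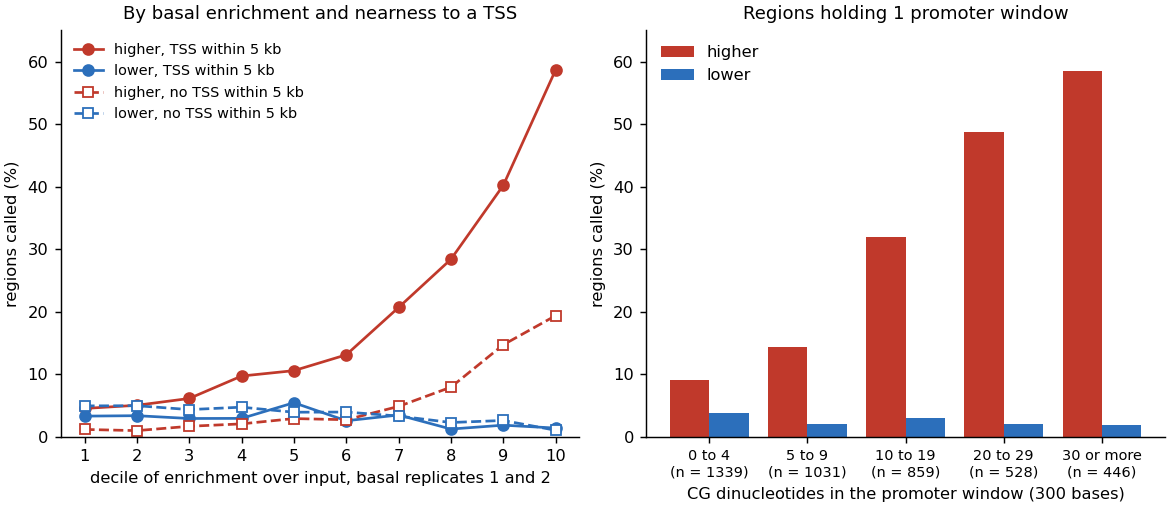
Left, percent of regions called higher or lower by decile of basal enrichment, for regions with and without a transcription start within 5 kb. Right, percent called by the number of CG in the promoter window, for regions holding 1 window. Higher calls reach 58.6% in the top decile near starts and 58.5% at 30 or more CG.

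On the X chromosome, 60 of 287 regions (20.9%) were higher and 0 were lower by edgeR, with 9 lower at an unadjusted p under 0.05 and 1 lower by DESeq2. On the autosomes the percentages were 9.4% higher and 3.5% lower.

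The largest gains among well-covered regions lay at a mixed set of genes. At the start of 5730435O14Rik, a noncoding RNA gene, CPM was 14.5, 10.4 and 10.8 in basal and 43.1, 41 and 51.7 in CD229+CD11c- libraries. Every CD229+CD11c- library was above every basal one, and the log2 change was 1.93 ± 0.14 (SE, edgeR adjusted p = 4.57e-08). At Cux2, a homeobox transcription factor gene of upper-layer neurons, CPM went from 19.4, 13.9 and 14.3 to 45.9, 46.9 and 43.8, a log2 change of 1.52 ± 0.13 (edgeR adjusted p = 9.64e-08). Its CG-rich window is the second sequence printed above. At Mmp15, a membrane-bound matrix metalloproteinase gene, CPM went from 17.6, 15.1 and 15.5 to 45.2, 37.5 and 41.3, a change of 1.37 ± 0.11 (edgeR adjusted p = 9.64e-08). Gains within 5 kb of a start also included Car11 (1.31 ± 0.14), Ankrd63 (1.28 ± 0.11), Ajuba (1.14 ± 0.13), a LIM-domain protein of cell junctions, and Lbr (1.51 ± 0.21), the lamin B receptor. Under the median level, and so not among the well-covered regions, a small region inside Cdh23, a cadherin gene, had a change of 2.02 ± 0.19. It went from 8.9, 5.7 and 4.31 to 25.2, 23.8 and 26.9 CPM.

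Several gains covered neighbouring regions. Upstream of Sema4b, a transmembrane semaphorin, the region at chr7:80169322-80191413 had 107, 90.4 and 95 CPM in basal and 278, 281 and 335 in CD229+CD11c- libraries. Its log2 change was 1.61 ± 0.13 (edgeR adjusted p = 2.91e-07), and the region beside it changed by 1.52 ± 0.11. On chromosome 19, 2 regions nearest to Gstp3, a glutathione S-transferase, changed by 1.28 ± 0.13 and 1.31 ± 0.19, and the next one, at the calcium-binding protein gene Cabp2, by 1.20 ± 0.09. On chromosome 2, the regions at Bmi1 and at Spag6 changed by 1.51 ± 0.20 and 1.40 ± 0.23. Neighbouring regions share their surroundings and are not separate observations.

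**Figure D3:**
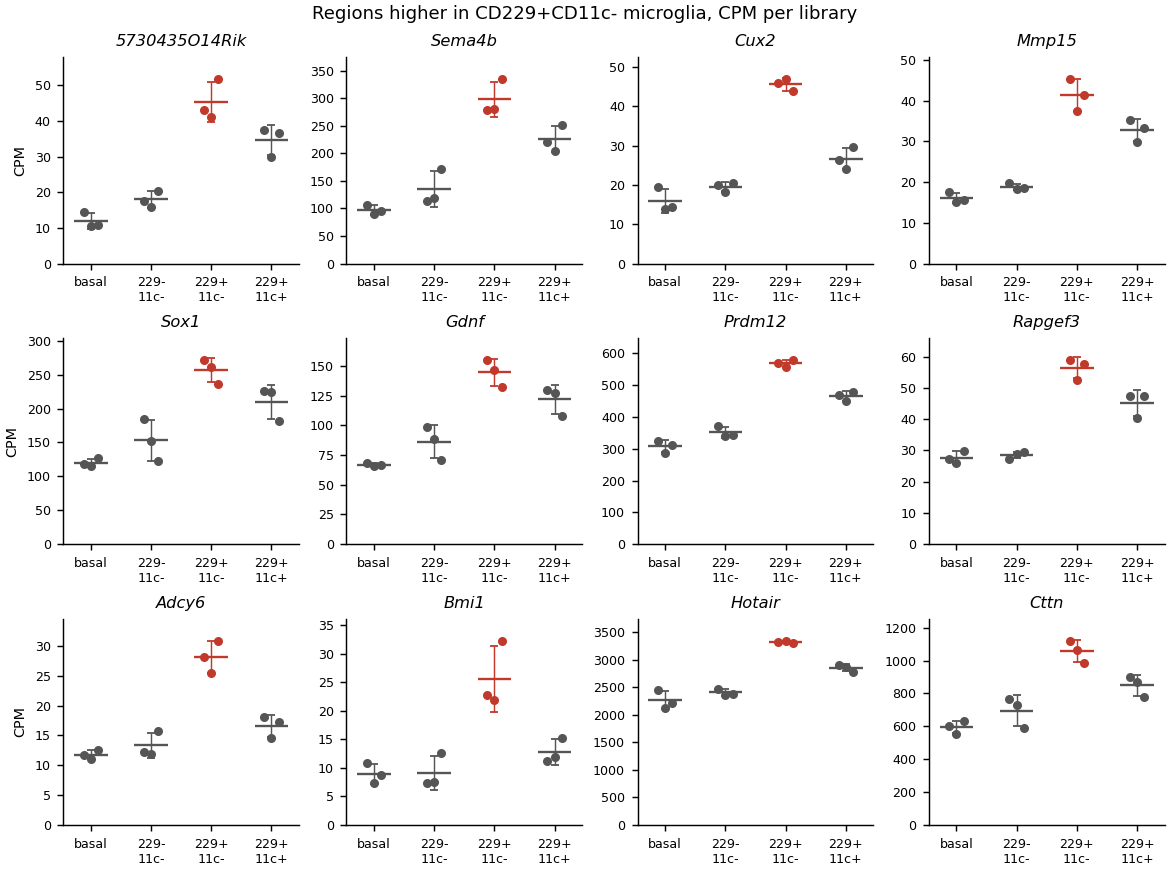
CPM (vertical axis) of 12 higher regions in each of the 12 libraries (dots), with the mean of each group as a line and the SD as bars. Groups are basal cells and the 3 sorted cuprizone subsets, written by the presence (+) or absence (-) of CD229 and CD11c. In each panel the 3 CD229+CD11c- libraries lie above the 3 basal libraries, for example 43.1, 41 and 51.7 against 14.5, 10.4 and 10.8 at 5730435O14Rik.

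Regions that overlap developmental transcription factor genes were often higher. Percentages for each gene list below are to be read against 9.52% higher and 3.47% lower over all regions. Most regions were intergenic, of which 5.95% were higher, whereas the lists hold only regions that overlap genes. Of all regions with a start inside, 29.5% were higher and 2.44% lower, and of intronic regions 11.6% and 4.21%. A list share of 29.5% higher or less is therefore not above that of regions with a start inside. All 39 Hox genes, which set position along the body axis, lay in 4 regions, and all 4 were higher. The Hoxc region, which holds the noncoding RNA Hotair and spans 410327 bp, had 2447, 2128 and 2223 CPM in basal and 3330, 3351 and 3310 in CD229+CD11c- libraries, a log2 change of 0.56 ± 0.06 (edgeR adjusted p = 2.19e-06). Hoxa, Hoxb and Hoxd changed by 0.69 ± 0.09, 0.54 ± 0.07 and 0.54 ± 0.07. Offsets that remove, by construction, the trend of change with basal enrichment and tag density left -0.03 at Hoxa, -0.0037 at Hoxb, 0.11 at Hoxc and 0.05 at Hoxd. The Hox gains were thus close to those of other regions of their enrichment and density. Where a list below has no region called in a direction by edgeR, DESeq2 called none there either.

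Of 150 regions overlapping 114 of 115 homeobox and Pax genes outside the clusters, 101 were higher (67.3%) and 1 lower. Their median log2 change was 0.46, or 0.33 with total scaling and 0.13 with the trend offsets. Six6, an eye development factor, went from 114, 101 and 102 to 175, 197 and 185 CPM (0.81 ± 0.07). Nkx1-2, another homeobox factor gene, changed by 0.81 ± 0.07. Regions nearest to these genes held 2.86%, 2.73% and 2.81% of all tags in basal and 3.48%, 3.48% and 3.37% in CD229+CD11c- libraries.

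Forkhead, T-box and Sox genes overlapped 66 regions, of which 45 were higher (68.2%) and 0 lower by edgeR, with 1 lower at an unadjusted p under 0.05 (median log2 change 0.45). Sox1, a neural progenitor factor, went from 118, 116 and 126 CPM to 272, 261 and 237, a change of 1.09 ± 0.11 (edgeR adjusted p = 2.31e-06). Foxc1 (0.70 ± 0.07) and Foxd3 (0.65 ± 0.07), a neural crest factor, were also higher. Of 132 regions at bHLH and zinc-finger developmental factors, 69 were higher (52.3%) and 3 lower (median 0.36). Prdm12, needed for pain-sensing neurons, went from 326, 287 and 312 CPM to 570, 557 and 579 (0.88 ± 0.07). Scrt1, a neuronal repressor, changed by 0.98 ± 0.09 and Hes5, a Notch target, by 0.70 ± 0.07. Medians of both lists were 0.31 and 0.22 with total scaling.

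These counts depend on how regions are given to genes. When each region was given to its nearest gene instead, at any distance, more regions were counted for most lists. Homeobox and Pax genes then had 96 higher and 4 lower of 276 regions (median 0.13, or -0.01 with total scaling). Forkhead, T-box and Sox genes had 41 higher and 2 lower of 104 (0.13 and -0.01), and bHLH and zinc-finger factors 68 higher and 6 lower of 255 (0.036 and -0.10). Growth factor genes had 32 higher and 11 lower of 169 (-0.01 and -0.15), against 39 and 2 of 94 by overlap. Polycomb genes had 14 higher and 2 lower of 69 (0.072 and -0.065). Disease-associated microglia genes had 13 lower of 61 (-0.20 and -0.34). In all 6 of these lists the median was nearer to 0 than by overlap.

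Signalling genes followed with smaller shares. Wnt pathway genes overlapped 75 regions, 29 higher (38.7%) and 0 lower by edgeR, with 1 lower at an unadjusted p under 0.05 (median 0.25). Among ligands, Wnt10a changed by 0.62 ± 0.06 and Wnt1 by 0.65 ± 0.08, and the receptor gene Fzd1 by 0.85 ± 0.10. With the trend offsets, Wnt1 was at -0.0028. FGF, hedgehog, Notch and other growth factor genes overlapped 94 regions, 39 higher (41.5%) and 2 lower (median 0.24). Gdnf, a neurotrophic factor, went from 68.1, 66 and 66.4 CPM to 155, 146 and 132 (1.11 ± 0.10, edgeR adjusted p = 3.68e-07), and its relative Artn changed by 1.04 ± 0.11. At the angiogenic factor gene Vegfa, the nearest region lay 67611 bp from the start and changed by 0.70 ± 0.08.

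TGF-beta, BMP and activin genes overlapped 74 regions, 24 higher (32.4%) and 2 lower, with a median of 0.11 that became -0.02 with total scaling. The activin subunit gene Inhbb changed by 0.90 ± 0.12 and the activin antagonist gene Fst by 0.46 ± 0.08. Axon guidance genes overlapped 131 regions, 38 higher (29%) and 4 lower (median 0.15, or 0.01 with total scaling). The semaphorin receptor gene Plxna1 lay nearest to a region of 136146 bp that went from 732, 666 and 706 CPM to 1147, 1078 and 1130 (0.67 ± 0.06).

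Genes of neurons and of cell contact showed a lower share of gains over many regions. Ion channel genes overlapped 317 regions, 59 higher (18.6%) and 12 lower (3.79%). Neurotransmitter receptor and synapse genes overlapped 310, 63 higher (20.3%) and 3 lower. Both lists had a median of 0.11 that became -0.03 with total scaling, where all regions were at -0.16. Adra2a, an adrenergic receptor gene, went from 55, 44.3 and 47.7 CPM to 97.8, 101 and 97.4 (1.01 ± 0.10). Gad2, which makes GABA, changed by 0.56 ± 0.07, and the potassium channel gene Kcnk12 by 1.45 ± 0.17. Grin2c (0.54 ± 0.06) and Syt2 (0.53 ± 0.06) were higher too, but stood at -0.06 and -0.03 with the trend offsets.

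Cadherin and protocadherin genes overlapped 74 regions, 21 higher (28.4%) and 0 lower by edgeR, with 1 lower at an unadjusted p under 0.05 (median 0.12, or -0.02 with total scaling). Fat1 changed by 0.59 ± 0.08 and Dchs1, a planar polarity cadherin, by 0.70 ± 0.10. Extracellular matrix and protease genes overlapped 230 regions, 42 higher (18.3%) and 9 lower (3.91%, near the share of all regions), with a median of 0.04 (-0.10 with total scaling). Fbn2, a fibrillin gene, changed by 0.81 ± 0.09 and Col2a1, a cartilage collagen gene, by 0.66 ± 0.08.

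**Figure D4:**
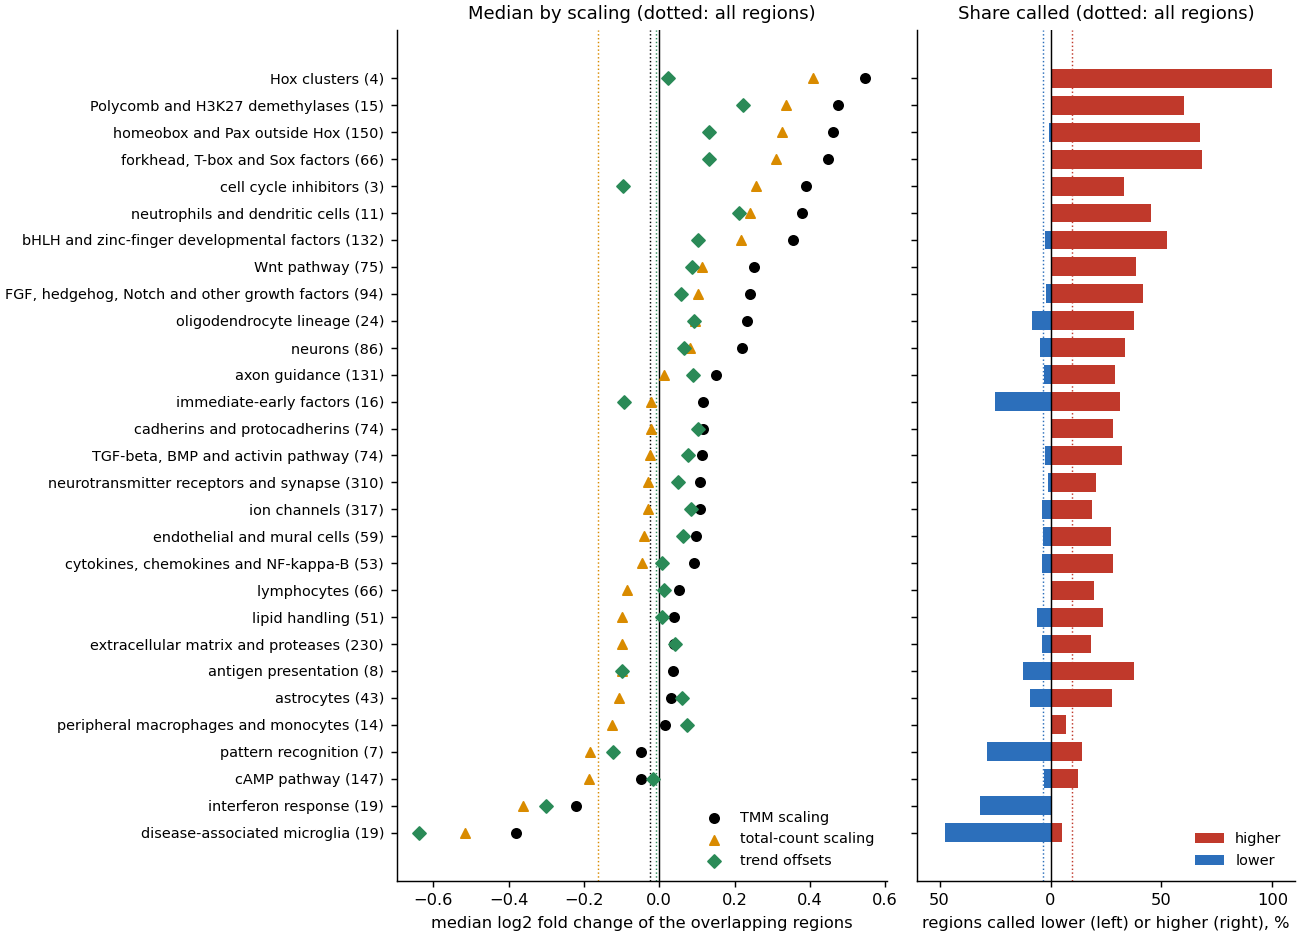
Left, median log2 change of the regions overlapping each gene list under 3 scalings (TMM, total tags, trend offsets), with dotted lines at the median of all regions. Right, percent of those regions called higher or lower. Homeobox regions have a median of 0.46 and disease-associated microglia regions one of -0.38 under TMM.

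Genes of the Polycomb system were among those that gained the mark. Of 46 such genes, 11 overlapped 15 regions, of which 9 were higher (60%) and 0 lower by edgeR, also at an unadjusted p under 0.05 (median 0.48, or 0.34 with total scaling). In an intron of Bmi1, a PRC1 subunit, CPM went from 10.8, 7.36 and 8.8 to 22.8, 21.9 and 32.3, a log2 change of 1.51 ± 0.20 (edgeR adjusted p = 2.87e-05). Sfmbt2 (0.83 ± 0.10), a Polycomb group protein, and Epop (0.72 ± 0.11), a PRC2-associated protein, were also higher. The region nearest to Rybp, a subunit of variant PRC1, lay at -101444 bp from its start and changed by 0.73 ± 0.11. Given to the nearest gene in this way, 14 of 69 regions were higher and 2 lower. Of 5 regions nearest to Jarid2, 1 was lower and 0 were higher. Of 7 nearest to Aebp2, 1 was lower and 0 were higher.

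The cAMP pathway as a list was close to all regions. Its genes overlapped 147 regions, 18 higher (12.2%) and 4 lower (2.72%), with a median of -0.05. The regions described are the 4 with the smallest p among those nearest to its genes. Rapgef3, the cAMP-activated exchange factor EPAC1, went from 27.2, 26 and 29.9 CPM to 58.9, 52.6 and 57.8 (1.02 ± 0.10, edgeR adjusted p = 4.33e-07). The adenylyl cyclase genes Adcy6 and Adcy8, whose products make cAMP, changed by 1.25 ± 0.14 and 1.05 ± 0.12. Gnas, the stimulatory G protein subunit, changed by 0.89 ± 0.11. Rapgef3 and Adcy6 lie on chromosome 15 with Col2a1, Wnt1 and Kcnh3, all of which were higher.

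Among cell cycle inhibitors, 3 of 11 genes overlapped a region. At Cdkn1c, an imprinted cyclin-dependent kinase inhibitor, the promoter region went from 62.6, 52.2 and 61.9 CPM to 102, 95.4 and 96.3 (0.73 ± 0.08), and a neighbouring region changed by 0.50 ± 0.09.

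Genes of disease-associated microglia, the state seen around plaques and demyelination, lost the mark at 9 of the 19 regions that they overlapped and gained it at 1. The regions covered 12 of 46 genes of the list. Their median was -0.38, -0.52 with total scaling and -0.64 with the trend offsets. In the first intron of Lgals3, the carbohydrate-binding protein galectin-3, CPM was 21.6, 18.2 and 20.4 in basal and 5.98, 7.01 and 9.09 in CD229+CD11c- libraries. The groups did not overlap, and the log2 change was -1.45 ± 0.17 (edgeR adjusted p = 4.74e-06). Etl4 went from 22, 17.8 and 18.4 to 8.58, 9.47 and 7.29 (-1.20 ± 0.16) at 1 of its 4 regions, and the other 3 were not called, at 0.78, 0.19 and 0.009. Fam20c, a secretory-pathway kinase, went from 25.1, 24.1 and 22.4 to 10.1, 11.2 and 11.7 (-1.12 ± 0.15).

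Losses in the disease-associated list included the lipid genes Ch25h and Apoe. Ch25h, which makes 25-hydroxycholesterol, went from 22.8, 15.9 and 16.4 CPM to 9.45, 10.4 and 7.52 (-1.01 ± 0.17, edgeR adjusted p = 0.000204). The lipid carrier Apoe was at -1.54 ± 0.39 (edgeR adjusted p = 0.013) and the receptor kinase Axl, which binds apoptotic cells, at -1.25 ± 0.28 (0.00372). Myo1e, a membrane-linked myosin, was at -0.93 ± 0.20 (edgeR adjusted p = 0.00301). The region that overlaps Cd63 was the 1 higher (0.55 ± 0.13), and its nearest start was that of Gdf11. Regions at Gpnmb and Dkk2 did not pass the test, with -0.33 ± 0.13 nearest the Gpnmb start and -0.03 ± 0.12 at Dkk2. Regions nearest to genes of the list held 0.128%, 0.125% and 0.119% of tags in basal and 0.0881%, 0.0933% and 0.101% in CD229+CD11c- libraries. The lipid handling list, which also holds Ch25h, overlapped 51 regions, 12 higher (23.5%) and 3 lower (5.88%).

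Interferon response genes overlapped 19 regions, 6 lower and 0 higher by edgeR, with 2 higher at an unadjusted p under 0.05 and a median of -0.22 (-0.36 with total scaling). Across Oasl2, an antiviral 2'-5' oligoadenylate synthetase-like gene, CPM went from 144, 121 and 117 to 48.2, 58.2 and 61.6, a change of -1.19 ± 0.13 (edgeR adjusted p = 4.83e-06). The neighbouring region, nearest to 2210016L21Rik, changed by -1.03 ± 0.12. Irf7, a master regulator of type I interferon, went from 13.9, 14.3 and 13.9 to 6.75, 6.31 and 5.61 (-1.17 ± 0.20). Upstream of Gbp7, a guanylate-binding protein gene, a region gained the mark (1.53 ± 0.19).

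**Figure D5:**
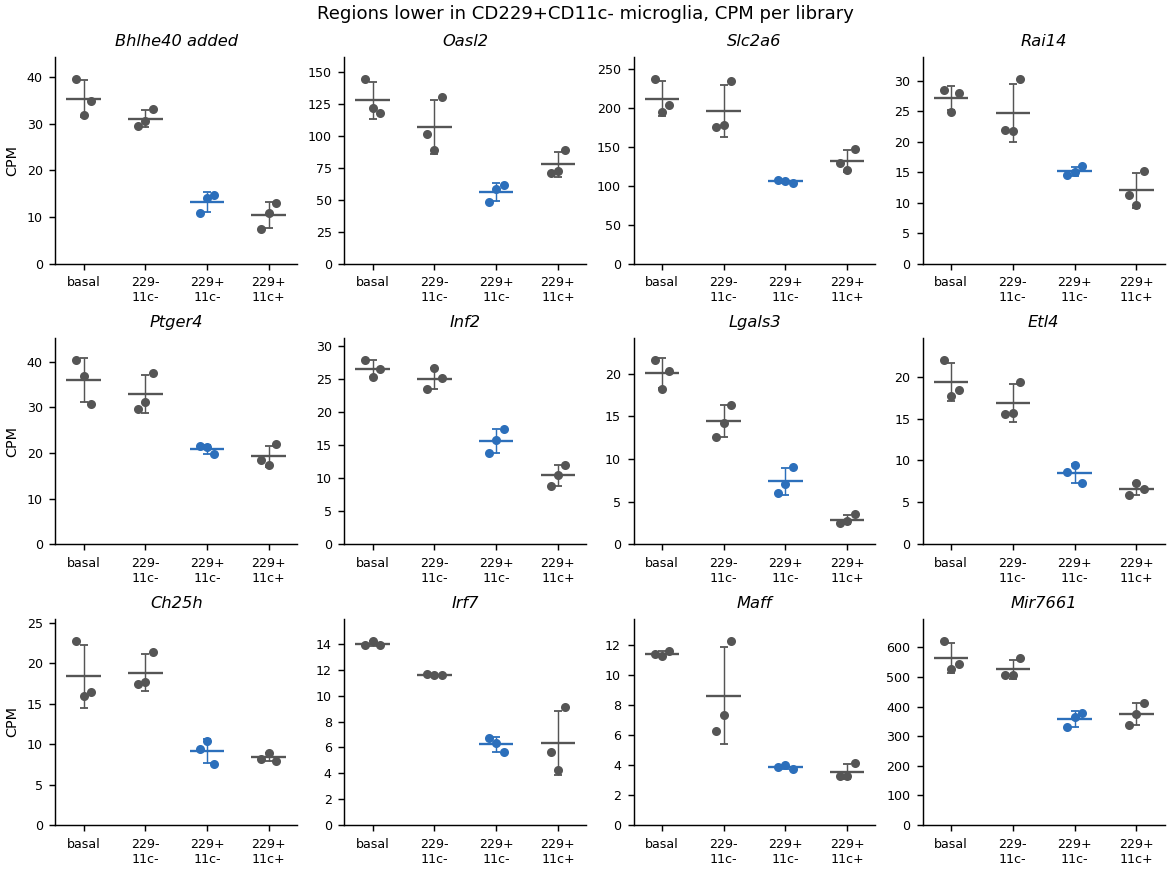
CPM (vertical axis) of 12 lower regions in each of the 12 libraries (dots), with group means as lines and SD as bars, for basal cells and the 3 cuprizone subsets written as + or - for CD229 and CD11c. In each panel the 3 CD229+CD11c- libraries lie below the 3 basal libraries, for example 5.98, 7.01 and 9.09 against 21.6, 18.2 and 20.4 at Lgals3.

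The largest loss among well-covered regions was in the region that the authors added at Bhlhe40, a bHLH repressor of activated immune cells. CPM there went from 39.5, 31.7 and 34.8 to 10.8, 14 and 14.7, a log2 change of -1.43 ± 0.16 (edgeR adjusted p = 2.55e-06). It lies inside a region of 108514 bp that changed by -0.42 ± 0.09, and its tags were counted in both. A long region nearest to Mir7661 on the same chromosome went from 622, 525 and 543 CPM to 329, 365 and 379 (-0.66 ± 0.08). A region of 114133 bp at Nedd9, an adhesion scaffold gene, changed by -0.48 ± 0.10.

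Other regions within 5 kb of a start also lost the mark. The Slc2a6 region, at a glucose transporter family gene, went from 237, 194 and 204 CPM to 108, 105 and 103. On the log2 scale it thus fell by 1.00 ± 0.10 (edgeR adjusted p = 1.98e-06). Rai14, an actin-binding protein, went from 28.5, 24.9 and 28 to 14.5, 15 and 15.9 (-0.84 ± 0.16), and the formin Inf2 from 27.9, 25.4 and 26.5 to 13.8, 15.8 and 17.4 (-0.77 ± 0.13). Ptger4, the prostaglandin E2 receptor EP4, changed by -0.78 ± 0.13, and of 5 regions nearest to its relative Ptger3, 1 was higher (0.98 ± 0.13) and 2 were lower. The Slc2a6 and Rai14 windows printed above hold 22 and 25 CG, so CG-rich promoters were also found among losses. Wipf1 (-0.82 ± 0.18), an actin regulator of blood cells, and St3gal1 (-0.79 ± 0.11), a sialyltransferase, lost the mark outside their starts.

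Immediate-early factors went both ways, with 5 of 16 overlapping regions higher and 4 lower. Maff, a small MAF factor, went from 11.4, 11.2 and 11.6 CPM to 3.86, 3.97 and 3.7 (-1.56 ± 0.23, edgeR adjusted p = 4.82e-05). Fosb, an AP-1 subunit, went from 56, 44.7 and 41.6 to 88.2, 84.6 and 112 (1.00 ± 0.15), and the region upstream of Fosl2, another AP-1 subunit, changed by 1.21 ± 0.14. The nuclear receptor gene Nr4a2 changed by 0.58 ± 0.10, but stood at -0.15 with the trend offsets.

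Other immune lists were small. Cytokine, chemokine and NF-kappa-B genes overlapped 53 regions, 15 higher (28.3%) and 2 lower (median 0.09, or -0.05 with total scaling). Lifr and Osmr, receptors of the interleukin-6 family, were nearest to regions that changed by 0.66 ± 0.07 and 0.48 ± 0.07. Antigen presentation genes overlapped 8 regions, 3 higher and 1 lower. At Nlrc5, the activator of MHC class I genes, 1 of 2 regions was lower (-1.06 ± 0.21), from 7.9, 7.64 and 8.28 CPM to 3.86, 4.32 and 3.25, and the other, at the start of the neighbouring gene Cpne2, was not called (-0.09 ± 0.08). At Ciita, the activator of MHC class II genes, 1 of 3 regions was higher. It went from 31.9, 22.4 and 23.2 to 37.9, 37.9 and 41.3 CPM (0.60 ± 0.15, edgeR adjusted p = 0.00781), and without basal replicate 4 the adjusted p was 0.0708. Pattern recognition genes overlapped 7 regions, 1 higher and 2 lower. A region in the scavenger receptor gene Marco was at -0.52 ± 0.14 (edgeR adjusted p = 0.0147).

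The region overlapping Fcgr3, an Fc receptor and the sole homeostatic microglia gene that touched a region, was higher (0.81 ± 0.12, edgeR adjusted p = 8.68e-05), a region picked out after its value was seen. It was annotated as intergenic and also overlaps Mir6546. Its nearest gene was not of the homeostatic list, whose nearest regions changed by at most 0.62. No gene of the SLAM family list, Ly9 included, overlapped a region, nor did Itgax, so the mark at both sorted markers was not measured.

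Genes of other cell types carried the mark and gained it in part. Of 86 regions at neuronal markers, 29 were higher (33.7%) and 4 lower (4.65%). Oligodendrocyte lineage genes overlapped 24 regions, 9 higher (37.5%) and 2 lower, and Olig2, which drives that lineage, went from 246, 214 and 237 CPM to 351, 355 and 341 (0.59 ± 0.07). Astrocyte genes overlapped 43 regions, 12 higher (27.9%) and 4 lower (9.3%), with Sox9 at 0.64 ± 0.11 and Gfap at 0.43 ± 0.07. Endothelial and mural genes overlapped 59 regions, 16 higher (27.1%) and 2 lower (3.39%). Of their regions, 1 in Flt1, a VEGF receptor gene that is also on the disease-associated list, was lower (-0.82 ± 0.14), and 3 others in the gene were not called.

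Lymphocyte genes overlapped 66 regions, 13 higher (19.7%) and 0 lower by edgeR (4 lower at an unadjusted p under 0.05), with the T cell factors Lef1 at 0.73 ± 0.07 and Tcf7 at 0.70 ± 0.10. Neutrophil and dendritic cell genes overlapped 11 regions, 5 higher and 0 lower by edgeR (2 lower at an unadjusted p under 0.05), with the dendritic factor Zbtb46 at 1.00 ± 0.12 and the receptor Flt3 at 0.95 ± 0.11. Peripheral macrophage and monocyte genes overlapped 14 regions, 1 higher and 0 lower by edgeR (1 lower at an unadjusted p under 0.05, median 0.02). None of these 7 lists of other cell types had more regions lower than higher. The same lean was seen over all regions, 2506 higher and 913 lower, and in regions with a start inside, 1545 and 128. It is thus not particular to these lists. By nearest gene, the shares higher were 21.8% for neurons, 17.2% for astrocytes, 16.9% for endothelial and mural cells and 15% for the oligodendrocyte lineage. They were 14.3% for neutrophils and dendritic cells, 10.1% for lymphocytes and 4% for peripheral macrophages and monocytes. The medians of the 7 lists then lay between -0.04 and 0.12. The part of other cells in the results was not tested.

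Changes in CD229+CD11c- cells were then set beside those of the other cuprizone cells, which were compared with the same basal libraries. At the higher regions, the log2 change from basal had a median of 0.48 for CD229+CD11c- cells, while CD229+CD11c+ cells stood at 0.28 and CD229-CD11c- cells at 0.09. At the lower regions these medians were -0.51, -0.31 and -0.13. Since the regions were chosen in CD229+CD11c- cells, they are a description.

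The differences between subsets were tested directly. CD229+CD11c- and CD229-CD11c- cells differed at 2199 regions (8.35%), 1777 higher (6.75%) and 422 lower (1.6%) in CD229+CD11c- cells. With the replicate number as a block, 4595 regions differed, 3155 higher and 1440 lower, and with total scaling 1059 were higher and 1697 lower. CD229+CD11c- and CD229+CD11c+ cells differed at 217 regions (0.824%), 203 higher (0.771%) and 14 lower (0.0532%). That count was unstable. It rose to 1920 with the PE150 tag as a term and 1397 in tagged libraries, and fell to 28 with total scaling and to between 9 and 157 when 1 library was left out. It was 64, 39 and 14 without CD229+CD11c- replicates 1, 2 and 3, and 10 and 9 without CD229+CD11c+ replicates 1 and 2. With the trend offsets it was 45, of which 24 were higher and 21 lower, so the lean to higher regions was not kept there.

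Lgals3 and Ciita showed large differences between the CD229+ subsets. Lgals3 changed from basal by -1.45 in CD229+CD11c- and -2.78 in CD229+CD11c+ cells, a difference of 1.32 ± 0.22 (edgeR adjusted p = 0.00723). CPM in the CD229+CD11c+ libraries was 2.43, 2.71 and 3.54, below all 3 CD229+CD11c- libraries. Leaving out CD229+CD11c- replicate 3, or CD229+CD11c+ replicate 1 or 2, gave adjusted p of 0.061, 0.0692 and 0.0817. At Ciita the CD229+CD11c+ libraries had 16.1, 20 and 21.5 CPM, below all basal and all CD229+CD11c- libraries, and the difference was 1.02 ± 0.15 (edgeR adjusted p = 0.00398). Without CD229+CD11c+ replicate 1 that adjusted p was 0.0533.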

How the data were processed

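The build was mm10 (GRCm38), and the authors' tools included Bowtie2 2.3.4.1 and HOMER, per the submitters' processing notes. Which aligner was used for these libraries, and the duplicate settings, are not given in the sources used here. Per the file headers, HOMER called regions in basal replicates 1 and 2 over input with a DESeq2 step. The authors deposited raw counts of tags for 12 libraries in those 26325 regions and 1 added region, and their own log2 fold changes and adjusted p-values. The authors' deposited signal values, proportional to the counts within a library, were not tested here. The deposited log2 fold enrichment of basal replicates 1 and 2 over input gave the deciles. Input was not subtracted, and genome-wide totals were not used.

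Counts of all 12 libraries entered 1 edgeR 4.0.16 model (R 4.3.3) with group as the sole term, TMM scaling, robust dispersion and Benjamini-Hochberg adjustment over all regions. The low-count filter removed 0 regions. Shares of tags were tested by exact two-sided permutation. The members and the 31 gene lists were chosen with earlier results of these data known. A gene belonged to a region that overlapped it (RefSeq); regions were named by the nearest gene in the deposited annotation. Named were the 15 largest changes each way among regions of at least median level whose groups did not overlap, the 10 largest each way within 5 kb of a start, the 4 smallest p of each list with 3 or more calls and the called regions of the others, the Hox clusters, the 3 most changed long regions each way, the added region and the sort markers (145 in all).

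CD229+CD11c- and CD229-CD11c- libraries of the same number deviated together from their group means (r = 0.28, 0.13 and 0.46 for numbers 1, 2 and 3), a check from the values only. Unlike numbers did so too, at 0.25 for CD229-CD11c- 2 with CD229+CD11c- 1 and 0.14 for 1 with 2. Pairs of number 3 with 1 or 2 lay between -0.37 and -0.19. Number 3 is the untagged library, so number and tag cannot be told apart there. Alternatives were DESeq2 1.42.0, other scalings and filters, the PE150 tag as a term or as a filter, and each replicate left out.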

Additional observations from a re-analysis of the deposited data

Results flagged for a closer look

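Differences between CD229+CD11c- cells and the other cuprizone cells, tested directly by edgeR, drew attention because the subsets differed in their change from the same basal libraries. They stood at 2199 regions against CD229-CD11c- and 217 against CD229+CD11c+ cells. Of the 145 named regions, 36 differed from CD229+CD11c+ cells, 35 of them higher in CD229+CD11c- cells. Named regions were chosen for their change in the same CD229+CD11c- libraries, so this count is a description, and over all regions 0.824% differed. With the trend offsets, 24 of all regions were higher and 21 lower in CD229+CD11c- cells.

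At losses, the log2 difference was 1.32 ± 0.22 (SE) at Lgals3, where CD229+CD11c+ cells had less mark, and -0.64 ± 0.15 at Flt1, where they had more. Ciita differed by 1.02 ± 0.15, being above basal in CD229+CD11c- and at -0.42 in CD229+CD11c+ cells. Among the largest gains it was 0.77 ± 0.12 at Cux2, 0.65 ± 0.14 at Car11, 0.56 ± 0.11 at Ankrd63, 0.49 ± 0.11 at Scarf2, 0.69 ± 0.13 at Fosl2, 0.56 ± 0.09 at Cabp2 and 0.48 ± 0.11 at Sema4b. Bmi1 differed by 0.99 ± 0.20, Adcy6 by 0.76 ± 0.14 and Zbtb46 by 0.78 ± 0.12.

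Smaller differences were found at developmental factors, with 0.32 at Nkx1-2, 0.30 at Foxc1, 0.29 at Tbx4, 0.29 at Prdm12, 0.37 at Hes5, 0.30 at Olig2, 0.28 at Lhx2 and 0.38 at Gata2. Signalling genes differed by 0.29 at Wnt10a, 0.42 at Wnt8a, 0.37 at Wnt1, 0.31 at Gdf7, 0.39 at Ntf5, 0.32 at Plxna1, 0.33 at Lifr and 0.32 at Osmr. Neuronal and adhesion genes differed by 0.32 at Kcnh3, 0.75 at Kcnk12, 0.44 at Kcng3, 0.40 at Grin2c, 0.29 at Syt2, 0.31 at Ina and 0.52 at Dchs1. In all 35 regions with a positive difference except Lgals3 and Ciita, CD229+CD11c+ cells were between basal and CD229+CD11c- cells.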

How the results depend on the processing

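Against basal, 5828 regions were called with the PE150 tag as a term, 5532 in tagged libraries only, 5367 with total scaling, 1916 with trend offsets and 747 among regions of basal log2 enrichment of 2 or more (fewer regions tested). Leaving out 1 replicate gave 2084 to 3294. Against CD229-CD11c- these were 4370, 3309, 2756, 777 and 488, and 1532 to 2576. Against CD229+CD11c+ they were 1920, 1397, 28, 45 and 4, and 9 to 157, with 668 by DESeq2 and 631 from the 6 libraries compared. DESeq2 gave an adjusted p for only 8972 regions there, and none for the Lgals3 and Ciita regions described above. Its log2 differences at these were 1.34 and 1.03. The replicate block gave 4595 against CD229-CD11c- and 2199 against CD229+CD11c+, where numbers 1, 2 and 3 correlated at 0.20, 0.083 and 0.33. Unlike numbers correlated there at 0.093 (CD229+CD11c- 1 with CD229+CD11c+ 2) and 0.096 (2 with 1). No paired analysis was possible because basal and CD229+CD11c- libraries share only the number 3. The share of tags near starts differed by 0.936 points within 1 kb, 3.32 within 10 kb and 2.66 to 3.09 without 1 replicate. Signs turned under trend offsets at Hoxa7 (-0.031), Wnt1 (-0.0028), Grin2c (-0.064), Syt2 (-0.034), Slfn5 (-0.029), H2-Q7 (-0.25), Cyp46a1 (-0.15), Nr4a2 (-0.15), Neurod2 (-0.057) and Gm53 in the Hoxb cluster (-0.0037), and 26 other named regions lost their call. These offsets remove the trend by construction, and other causes were not tested.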
